A study of Mus musculus with 57 samples.

Results

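The PAX genes encode transcription factors that bind DNA through a paired domain. The mouse has 9 of them, Pax1 to Pax9, and all 9 were found by name among the 26089 curated RefSeq genes of chromosomes 1 to 19 and X used here. The 3 histone marks H3K4me3, H3K27ac and H3K27me3 were measured by ChIP-seq, in which DNA bound to a marked histone is pulled down with an antibody and sequenced, in brain cortex and in gastrocnemius, a calf muscle, of PSAPP mice at 13 months of age. PSAPP is a transgenic mouse model of Alzheimer's disease, every mouse here carried it, and no wild-type group was analysed. Each mark had 9 cortex and 10 gastrocnemius libraries, 57 in all from 10 mice, and the animal codes in the deposited names tie 9 of the mice to both tissues. From 6 months of age all mice were housed singly and fed a fixed daily ration of a modified AIN-93 diet. The mice were of both sexes according to the study's methods, and the labels do not say which. The question addressed is how the marks at the PAX genes differed between cortex and gastrocnemius.

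PAX proteins direct the formation of organs in the embryo, and most of their genes are switched off in most adult cells. They fall into 4 subgroups by sequence and structure. Pax1 and Pax9 pattern the sclerotome, from which vertebrae form, and the pharyngeal pouches. Pax2, Pax5 and Pax8 act in the midbrain-hindbrain boundary, the kidney, B cells and the thyroid. Pax3 and Pax7 specify neural crest and muscle precursors, and Pax7 marks the satellite cells, the stem cells of adult muscle. Pax4 and Pax6 act in the endocrine pancreas, and Pax6 also in the eye and in progenitors of the cerebral cortex. In mm10 coordinates Pax1 lies at chr2:147364994-147375049 and Pax9 at chr12:56695471-56712822, both on the plus strand. Pax2 is at chr19:44746601-44838269 on the plus strand, Pax5 at chr4:44524748-44710694 and Pax8 at chr2:24420551-24475599 on the minus strand. Pax3 (chr1:78101267-78197136) and Pax7 (chr4:139738081-139832968) are on the minus strand, as is Pax4 (chr6:28442334-28449340), and Pax6 (chr2:105668896-105698410) is on the plus strand. Their lengths run from 7007 bp at Pax4 to 185947 bp at Pax5. H3K4me3 lies at promoters that are active or poised, H3K27ac at active promoters and enhancers, and H3K27me3 is set by Polycomb repressive complex 2 over silent developmental genes.

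For each library the deposited file lists the peaks that epic2 called in it, each with the number of fragments counted in it (ChIPCount). Reads in peaks ranged from 9159253 to 18993192 a library for H3K4me3, from 3935242 to 27268192 for H3K27ac and from 2994888 to 18247332 for H3K27me3. Values are given as ChIPCount per 1000000 reads in autosomal peaks (CPM), either within 1 kb of the transcription start site (TSS, the most upstream curated one unless stated) or per kb of the gene body, and as the share of the gene covered by peaks and the width of the widest peak at the TSS. Where a peak reached beyond the window its count was shared by overlap, so a window inside a wide peak carries the average density of that peak. The files hold counts inside called peaks alone, so a library with no called peak is listed at 0 whatever reads lay there below the threshold of the caller. The gastrocnemius replicate 5 library of H3K27me3 stood apart, with the most reads of its mark and a median peak width of 7800 bp against 3800 to 6600 bp in the other 9, and H3K27ac of cortex replicate 9 was the shallowest of its mark. The cortex and gastrocnemius labels were checked on markers. Of 8 neuronal genes, 7 had H3K27ac at the TSS in every cortex library and 7 in no gastrocnemius library, whereas all 8 skeletal muscle genes had both H3K4me3 and H3K27ac in every gastrocnemius library. Of the 8 muscle genes, 3 also had H3K27ac in every cortex library, and 2 had more H3K4me3 in the cortex, Mylpf with 42.4 against 24.99 CPM and Actn3 with 36.0 against 27.2 CPM. H3K4me3 was higher in the cortex at 4 of 4 oligodendrocyte and 3 of 5 astrocyte genes (58.3% of all genes were), and in the gastrocnemius at 4 of 4 endothelial genes and the astrocyte gene Aldh1l1 (14.7% of all genes).

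The promoter sequences that carry the findings are those of Pax7 and of the outer and inner promoters of Pax6 and Pax2, with that of Pax1, which showed neither active mark, beside them. They run from 250 bases before to 50 bases after the TSS on the coding strand, are taken from RefSeq (GRCm38.p6, the same assembly as mm10), and have each CG dinucleotide, the site of DNA methylation and the base of CpG islands, in capitals. The table holds promoters of 7 of the 9 genes, and Pax3 and Pax4 are not in it.
Pax7, chr4:139832919-139833218, minus strand: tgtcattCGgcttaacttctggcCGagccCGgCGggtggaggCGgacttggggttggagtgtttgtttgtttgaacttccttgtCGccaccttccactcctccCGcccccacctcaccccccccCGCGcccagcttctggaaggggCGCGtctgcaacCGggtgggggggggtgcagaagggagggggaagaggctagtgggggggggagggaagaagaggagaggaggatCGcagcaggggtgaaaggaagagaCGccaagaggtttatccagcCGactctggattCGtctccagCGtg
Pax6 TSS 1, chr2:105668646-105668945, plus strand: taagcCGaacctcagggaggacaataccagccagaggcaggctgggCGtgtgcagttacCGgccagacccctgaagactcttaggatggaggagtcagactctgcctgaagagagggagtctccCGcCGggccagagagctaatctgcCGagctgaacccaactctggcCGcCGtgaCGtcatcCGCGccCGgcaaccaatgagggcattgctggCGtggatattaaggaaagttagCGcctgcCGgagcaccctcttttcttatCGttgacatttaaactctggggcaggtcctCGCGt
Pax6 TSS 4, chr2:105682213-105682512, plus strand: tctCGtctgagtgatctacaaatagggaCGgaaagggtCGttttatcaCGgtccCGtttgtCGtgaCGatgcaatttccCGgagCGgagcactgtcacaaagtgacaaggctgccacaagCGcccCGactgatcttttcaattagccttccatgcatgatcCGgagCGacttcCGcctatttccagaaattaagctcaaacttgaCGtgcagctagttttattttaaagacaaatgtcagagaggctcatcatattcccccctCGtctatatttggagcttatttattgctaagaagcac
Pax2 TSS 1, chr19:44746351-44746650, plus strand: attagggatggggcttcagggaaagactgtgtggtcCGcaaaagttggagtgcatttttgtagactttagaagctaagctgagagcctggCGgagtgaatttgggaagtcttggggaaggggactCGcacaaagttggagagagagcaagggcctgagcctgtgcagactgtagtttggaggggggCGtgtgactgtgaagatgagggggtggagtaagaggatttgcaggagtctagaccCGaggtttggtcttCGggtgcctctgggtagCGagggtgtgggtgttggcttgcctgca
Pax2 TSS 2, chr19:44755502-44755801, plus strand: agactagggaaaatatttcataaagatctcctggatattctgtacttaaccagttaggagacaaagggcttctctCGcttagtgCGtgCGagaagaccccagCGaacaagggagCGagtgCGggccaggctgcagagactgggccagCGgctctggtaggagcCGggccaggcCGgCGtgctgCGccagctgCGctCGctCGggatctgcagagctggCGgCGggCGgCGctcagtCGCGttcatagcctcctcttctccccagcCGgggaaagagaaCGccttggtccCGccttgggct
Pax1, chr2:147364744-147365043, plus strand: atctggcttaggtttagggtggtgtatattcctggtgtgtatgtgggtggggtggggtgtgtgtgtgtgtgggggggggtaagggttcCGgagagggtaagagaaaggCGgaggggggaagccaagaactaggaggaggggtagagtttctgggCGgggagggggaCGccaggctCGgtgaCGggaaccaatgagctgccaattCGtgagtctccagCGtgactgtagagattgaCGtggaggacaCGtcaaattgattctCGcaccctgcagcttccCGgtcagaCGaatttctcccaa
Pax7 held 17 CG dinucleotides, Pax6 18 at TSS 1 and 16 at TSS 4, numbered from the 5′ end, and Pax1 13. At Pax2 TSS 1 held 7 CG, the median of all 32851 promoters of this length, TSS 2 held 23 and TSS 3 held 30. The last had more CG than 88.3% of all promoters. Neither strand of any of the 10 PAX promoters held TATAAA, which 13.6% of all promoters held, and 3 of them (Pax8, the first of Pax6 and Pax1) held CCAAT on either strand, against 37.4% of all promoters.

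An H3K27me3 peak lay within 1 kb of the TSS of every PAX gene in all 19 libraries. Of all 26089 genes, 2041 (7.82%) had this. In the cortex the widest peak at the TSS averaged 97444 ± 29701 bp (SD, n = 9) at Pax2, a regulator of kidney and inner ear, and was wider than at 99.2% of the 3454 genes with an H3K27me3 peak in every cortex library, where the median gene had 9033 bp. Pax5, the B cell factor, averaged 62556 bp, Pax3 54289 bp, Pax7 51711 bp and Pax6 45000 bp, in that order wider than 97.9%, 97.5%, 97.3% and 96.5% of those genes. Pax8 and Pax4 had the narrowest, with 15200 and 15111 bp, wider than 77.2% and 77.0%. In the gastrocnemius Pax2 had a median of 46600 bp (18400 to 280600 bp, the highest being replicate 5), Pax6 45200 bp, Pax4 12500 bp and Pax8 12200 bp. By their means Pax8 and Pax4 were there wider than 56.3% and 53.0% of the 3224 genes with a peak in every gastrocnemius library, where the median gene had 12230 bp, and the other 7 genes wider than 82.7% to 99.3%. In the cortex peaks covered 100% of Pax1 in every library, 97.4% ± 2.87 of Pax2 and 83.7% ± 1.69 of Pax6. In the gastrocnemius single libraries went down to 0% at Pax4 (replicate 8), 36.0% at Pax7 and 42.2% at Pax9.

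**Figure D1:**
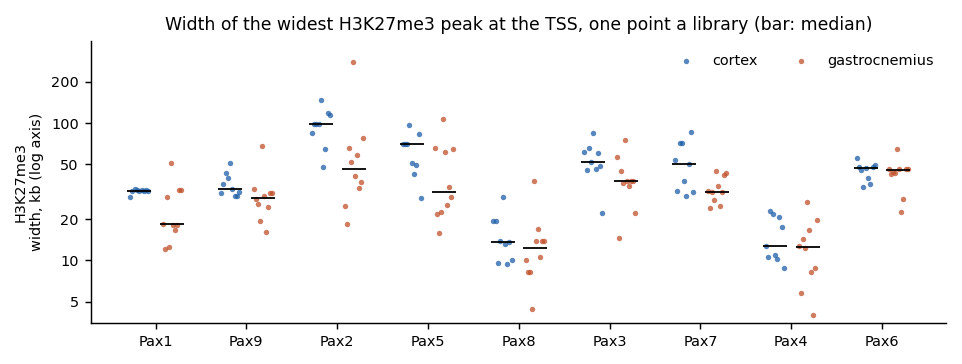
Width of the widest H3K27me3 peak within 1 kb of the TSS for the 9 PAX genes, in kb on a log axis, with 1 point for each of 9 cortex (blue) and 10 gastrocnemius (orange) libraries and a bar at the median. Medians in cortex run from 12800 bp at Pax4 to 99000 bp at Pax2, and the highest gastrocnemius point at Pax2 is the 280600 bp peak of replicate 5.

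H3K27me3 was higher in the cortex than in the gastrocnemius at most PAX genes, and the difference was small. By edgeR's quasi-likelihood test on the counts at the TSS, with Benjamini-Hochberg adjustment over the 2041 genes called in every library, 7 of the 9 genes were higher in the cortex at an FDR of 0.1 and none was lower. Of all genes tested, 48.5% were called, 25.1% as higher in the cortex. Pax1 showed the largest difference, with a log2 fold change of 0.52 ± 0.08 (SE, adjusted p = 1.51e-05). Its TSS carried 11.9 to 16.7 CPM in the cortex (median 14.9) and 5.51 to 13.8 CPM in the gastrocnemius (median 9.12), so the 2 groups overlapped. Pax9 followed with 0.47 ± 0.05 (adjusted p = 2.55e-07) and Pax7 with 0.39 ± 0.07 (adjusted p = 8.06e-05). The log2 fold changes of Pax8, Pax2, Pax3 and Pax5 were 0.35, 0.26, 0.26 and 0.18, the last with an adjusted p of 0.0568. Pax4, a factor of pancreatic beta cells, did not pass at 0.26 (adjusted p = 0.106), nor did Pax6 at -0.04 ± 0.08 (adjusted p = 0.717).

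At Pax6 the sign of that value depended on the scaling. With library sizes in place of TMM factors, which put the median of all genes at 0.11 on the log2 scale against 0.0076, it was 0.07. Pax6 had 11.7 to 17.02 CPM in the cortex (median 13.1) and 7.32 to 19.2 CPM in the gastrocnemius (median 12.6), and no group stood apart. With library sizes 6 genes were called higher in the cortex (15.2% of all genes), with Pax4 among them (adjusted p = 0.0859). Pax3 (adjusted p = 0.114) and Pax5 were not called, although their log2 fold changes, 0.36 and 0.26, were no smaller than with TMM factors. With DESeq2 7 genes were called higher in the cortex (22.6%), with Pax4 (adjusted p = 0.0903) and without Pax5. With the whole count of every peak that touches the window, in place of the share by overlap, 8 genes were called higher in the cortex (25.6% of all genes) and their log2 fold changes were larger, 1.01 at Pax1 and 1.08 at Pax7. Pax5 was not called by DESeq2 (adjusted p = 0.104), without cortex replicate 9 (adjusted p = 0.203) or with library sizes (adjusted p = 0.274). Under library sizes 311 genes were called higher and 120 lower in the cortex, against 512 and 477 with TMM factors.

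Some deposited names carry a further code, here called a run number, and the labels do not say what it stands for. Within the libraries with it (cortex 2, gastrocnemius 4), 2 of the 9 genes were called higher in the cortex, beside 10.2% of all genes. These were Pax1 with 0.46 and Pax9 with 0.56. Of those called with all libraries, Pax8 (0.31), Pax3 (0.30), Pax7 (0.29), Pax5 (0.26) and Pax2 (0.06) did not pass there. Without those libraries 7 were called (18.4% of all genes), among them Pax4 with 0.43 and not Pax5 with 0.15. In the exact permutation test on log2(CPM + 1), which scales by reads in autosomal peaks alone, 7 genes were higher in the cortex with all libraries (20.1% of 11687 genes tested were, and 39.0% differed in either direction) and 1, Pax1, without the libraries with a run number (12.4% of genes).

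H3K27me3 was also compared over whole gene bodies. The CPM per kb was higher in the cortex for 8 of the 9 genes (exact permutation test over 92378 splits, two-sided, adjusted over 12907 genes), and 29.4% of all genes tested were higher in the cortex, of 52.9% called in either direction. Without the libraries with a run number 6 genes were called (22.2% of all genes), as Pax2 (adjusted p = 0.375) and Pax4 (adjusted p = 0.231) did not pass. On the log2 scale Pax2 then differed by 0.10, against 0.30 with all libraries, and Pax4 by 1.05, against 0.83. At 4 genes, Pax1, Pax9, Pax3 and Pax7, every cortex library lay above every gastrocnemius library. The share of all genes whose groups do not overlap was not worked out, for this or the other levels and coverages below. Pax3, a factor of muscle precursors and neural crest, had 4.50 to 6.19 CPM per kb in the cortex (median 5.38) and 2.65 to 3.60 in the gastrocnemius (median 2.95; p = 1.08e-05, the smallest the test can give, adjusted p = 8.85e-05). Pax9 had 3.71 to 6.66 (median 5.68) against 2.21 to 3.51 (median 3.01), with the same p. Pax7 had 4.79 to 6.25 (median 5.35) against 2.10 to 4.06 (median 3.02; exact p = 2.17e-05). The order of the genes differed by tissue. On this per-length scale the mean level in the cortex ran from 7.41 ± 0.76 at Pax1 and 6.62 ± 0.54 at Pax2 down to 4.11 ± 0.43 at Pax8. In the gastrocnemius Pax6 had the highest mean with 5.69 ± 1.18, followed within the spread by Pax2 with 5.45 ± 1.14 and Pax1 with 4.72 ± 1.00, and Pax7 and Pax9 the lowest, both with 2.98. Pax6 had 5.70 ± 0.76 in the cortex, and its difference on the log2 scale was 0.02 (exact p = 0.858).

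The share of the gene covered by H3K27me3 was higher in the cortex for 5 genes, Pax1, Pax9, Pax5, Pax3 and Pax7, where 23.5% of all genes tested were, of 45.3% called in either direction. Pax7 was covered over 87.4% to 95.4% in the cortex (median 91.9%) and over 36.0% to 92.5% in the gastrocnemius (median 73.1%; adjusted p = 0.00209). Coverage of Pax3 was 91.5% ± 2.73 against 72.2% ± 15.0 (adjusted p = 0.00585). Of the widths, that of Pax7 alone passed, with 51711 ± 21101 bp against 33680 ± 7520.2 bp (adjusted p = 0.062), where 15.1% of all genes were wider in the cortex, of 36.6% called. Gastrocnemius replicate 5 bears on this: it held the widest gastrocnemius peak at all 9 genes, and without it, an alternative chosen after seeing the data, the widths of 6 genes passed, all wider in the cortex (16.3% of all genes were), with 6 genes for the coverage (24.3%) and 8 for the body level (27.8%).

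**Figure D2:**
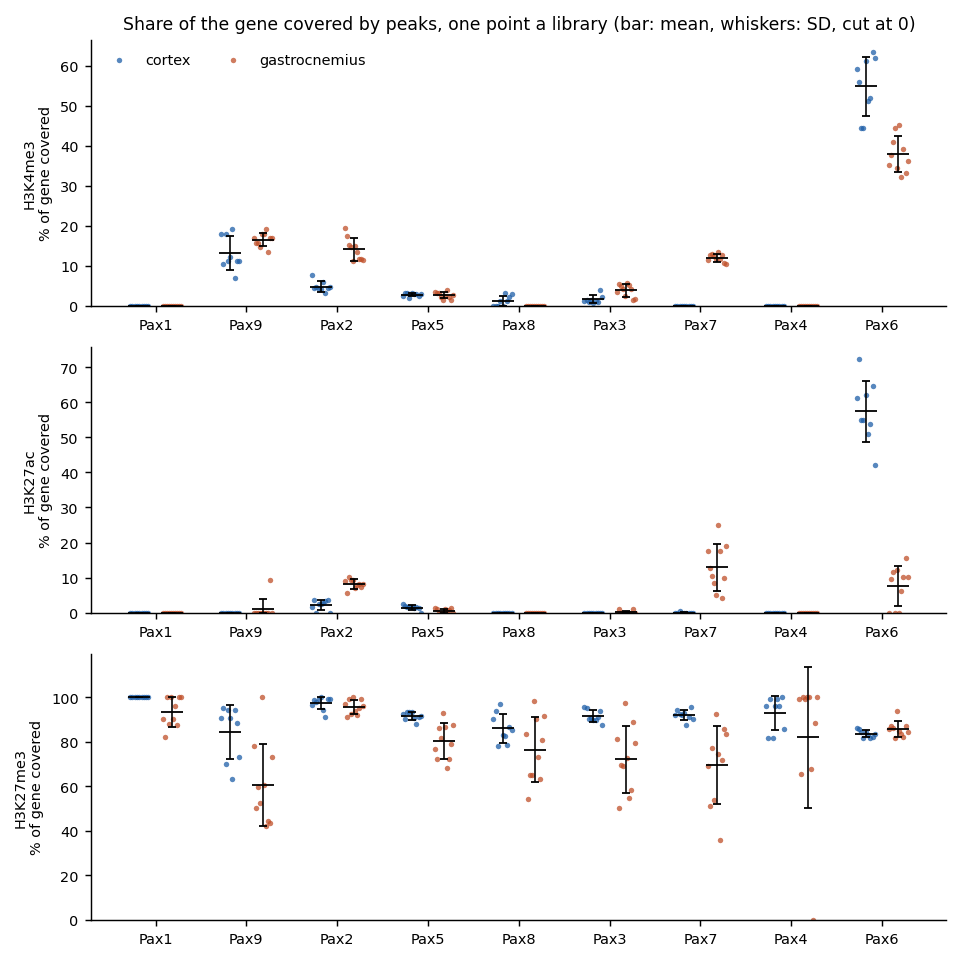
Share of each PAX gene covered by peaks, in percent, for the 3 marks, with 1 point for each of 9 cortex (blue) and 10 gastrocnemius (orange) libraries, a bar at the mean and whiskers of 1 SD. Single gastrocnemius libraries of H3K27me3 go down to 0% at Pax4 and 36.0% at Pax7, and H3K27ac covers 57.4% of Pax6 in the cortex on average and 7.52% in the gastrocnemius.

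At the TSS, H3K4me3 was called in at least 1 library at 7 of the 9 genes and H3K27ac at 5. Neither H3K4me3 nor H3K27ac touched Pax1 or Pax4, at the TSS or anywhere in the gene, in any of the 19 libraries of each mark. Across all genes 33.9% had no H3K4me3 peak and 26.8% no H3K27ac peak at the TSS in any library. Of the 7 genes with an H3K4me3 peak, Pax9 and Pax3 had it in every library of both tissues, as did 53.0% of all genes. By the exact permutation test on log2(CPM + 1) at the TSS, 4 of these 7 were higher in the gastrocnemius (Pax9, Pax5, Pax3 and Pax7) and 2 in the cortex (Pax8 and Pax6), with Pax2 not passing. These 6 stand beside 73.0% of all genes called in either direction. The background was 14.7% of genes higher in the gastrocnemius and 58.3% higher in the cortex, since the median of all genes lay 0.33 above 0 on this scale. For H3K27ac, Pax7 was higher in the gastrocnemius, as were 13.2% of genes, and Pax6 in the cortex, as were 49.0%. Those were 2 of the 5 PAX genes tested (background 62.2%). Over the gene body H3K4me3 coverage differed for 6 of the 7 genes (66.1%) and its level per kb for all 7 (65.7%), and H3K27ac coverage and level for 4 of 6 (60.2% and 72.3%). The width of the widest peak at the TSS differed for 5 of 7 and 2 of 5 genes (74.2% and 65.8%), and the number of libraries with a call for 2 genes each, Pax7 and Pax8 for H3K4me3 and Pax7 and Pax6 for H3K27ac (54.5% and 51.4%).

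**Figure D3:**
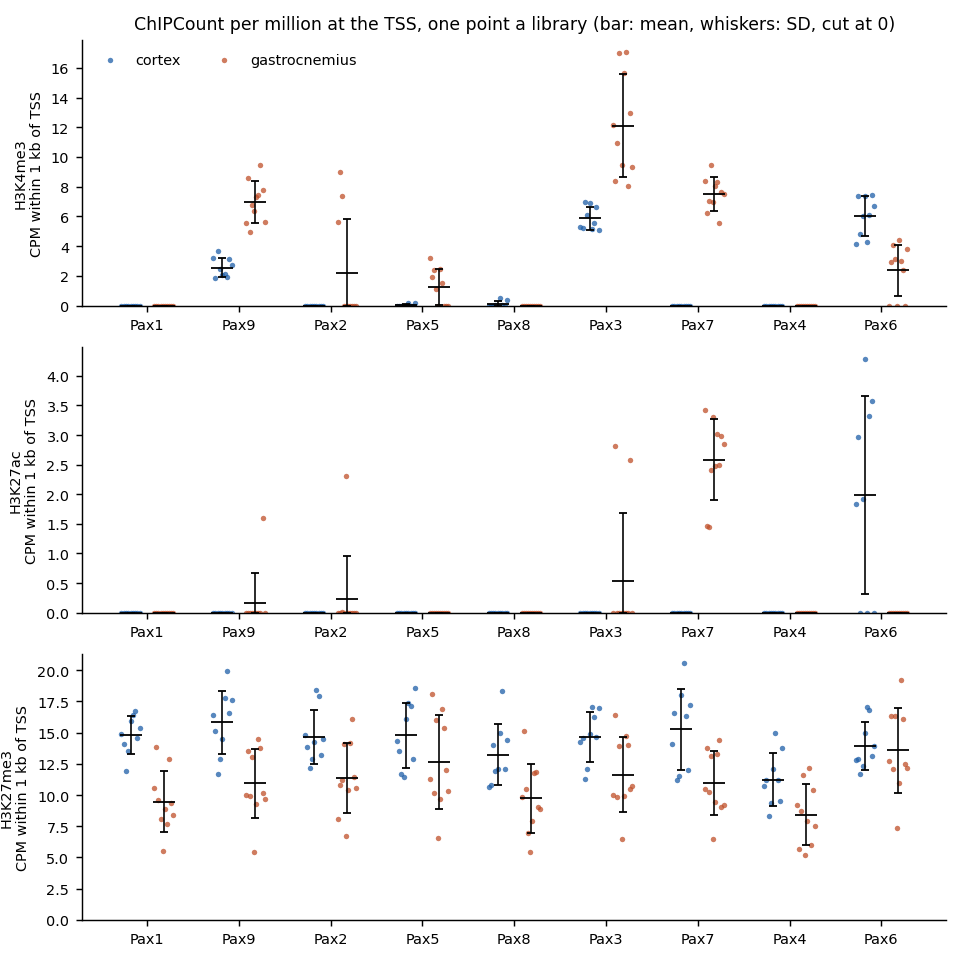
CPM within 1 kb of the TSS of each PAX gene for the 3 marks, with 1 point for each of 9 cortex (blue) and 10 gastrocnemius (orange) libraries, a bar at the mean and whiskers of 1 SD. Pax7 has H3K4me3 and H3K27ac in the 10 gastrocnemius libraries alone, and H3K27ac at Pax6 appears in 6 of 9 cortex libraries and no gastrocnemius library.

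Pax7, the satellite cell factor, had both active marks at its TSS in the gastrocnemius alone. No cortex library had an H3K4me3 peak at its TSS and all 10 gastrocnemius libraries had one, with 5.53 to 9.43 CPM (median 7.58). Such a split, every gastrocnemius and no cortex library, was found at 1.19% of all genes for H3K4me3 and 1.15% for H3K27ac. Fisher's exact test on the calls gave p = 1.08e-05, adjusted over 3411 genes to 4.49e-05. The level was above that of 6.18% of the 14539 genes with an H3K4me3 peak in every gastrocnemius library, and the peak was among the wide ones.

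The widest H3K4me3 peak at the Pax7 TSS spanned 6600 to 15400 bp (mean 10240 ± 3683), wider than at 95.3% of those genes. All 10 libraries had a peak over each 1 kb bin of Pax7 from 1 kb before to 6 kb after the TSS, and 9 or 10 of them from 7 to 12 kb. H3K27ac was likewise called at the Pax7 TSS in 0 of 9 and 10 of 10 libraries, with 1.44 to 3.42 CPM (median 2.67), and covered 4.18% to 25.05% of the gene (median 11.6%) against at most 0.337% in the cortex. The H3K27ac calls included a second block 61 to 63 kb into the gene in 8 or 9 of the 10 muscle libraries, and another between 84 and 91 kb in at most 4 of them. No cortex library had either of these, and 3 had H3K27ac just past the end of the gene, 95 to 96 kb from the TSS of Pax7.

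H3K27me3 remained over the same stretch of Pax7 in muscle. In each of the 10 mice the whole H3K4me3 peak at the gene lay within an H3K27me3 peak of the same muscle (100% of its length), and at the TSS the same held for H3K27ac in all 10. Over the whole gene 68.0% to 100% of the H3K27ac length was also under H3K27me3. The H3K27me3 peaks at the Pax7 TSS were 24200 to 45000 bp wide in muscle, so narrower peaks there had little room outside them. How often such overlap is found at other genes was not worked out. These are bulk tissues, so both marks in 1 region need not lie in the same cells, and for every value here fewer cells of a type and less of the mark per cell cannot be told apart. Among 4 satellite cell markers, Myf5, a myogenic factor, and Cdh15, M-cadherin, had H3K4me3 in no cortex and all 10 gastrocnemius libraries, with 8.39 ± 1.46 and 14.3 ± 3.90 CPM. Calcr and Vcam1 were called in both tissues and did not pass (exact permutation test, adjusted p = 0.406 and 0.995). Calcr had 1.26 CPM in the cortex and 0.94 in the gastrocnemius, and Vcam1 5.46 and 5.40. The summed H3K4me3 of the 4 was 3.61 to 9.64 CPM in the cortex and 21.5 to 36.2 in the gastrocnemius, and that of H3K27ac 0 to 5.78 and 10.3 to 15.3. Their part in the Pax7 result was not tested.

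Pax3, the paralogue of Pax7, carried H3K4me3 in both tissues and more of it in muscle. It had 5.11 to 6.97 CPM in the cortex (median 5.56) and 8.03 to 17.04 CPM in the gastrocnemius (median 11.5), with no overlap between the groups. The log2 fold change by edgeR was -1.39 ± 0.17 (SE, cortex against gastrocnemius, adjusted p = 2.66e-08 over 13837 genes, of which 52.8% were called and 26.6% were higher in the gastrocnemius). The difference was -1.42 without the libraries with a run number and -1.30 within them. A further H3K4me3 peak lay 6 to 7 kb upstream of Pax3 in every library of both tissues. H3K27ac reached the Pax3 TSS in 2 of 10 gastrocnemius libraries and no cortex library, which Fisher's test could not tell from the same rate in both (p = 0.474).

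Pax9, which acts in the sclerotome, the pharyngeal pouches and the teeth, followed the same direction at a lower level. H3K4me3 at its TSS was 1.87 to 3.64 CPM in the cortex (median 2.46) and 4.96 to 9.43 CPM in the gastrocnemius (median 7.04), again without overlap. By edgeR the log2 fold change was -1.75 ± 0.16 (SE, adjusted p = 1.35e-10), and it was -1.86 without and -1.47 within the libraries with a run number. With library sizes in place of TMM factors the values for Pax9 and Pax3 were -1.43 and -1.04. All of the H3K4me3 at Pax9 lay under H3K27me3 of the same tissue in all 9 cortices and 10 muscles, and the same held for the TSS window of Pax3. The H3K27me3 peaks at the TSSs of Pax9 and Pax3 were 14600 bp or wider in every library, so a narrower peak there had little room outside them. H3K27ac was called at Pax9 in a single library, gastrocnemius replicate 9, with 1.60 CPM.

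At the first TSS of Pax6 both active marks were higher in the cortex. The gene is transcribed from 4 curated start sites over 13567 bases. H3K4me3 at the first of them was 4.14 to 7.43 CPM in the cortex (median 6.13, 9 of 9 libraries called) and 0 to 4.41 CPM in the gastrocnemius (median 2.94, 7 of 10 called), a difference of 1.31 on the log2(CPM + 1) scale (exact p = 0.000206, adjusted p = 0.00062). H3K27ac was called there in 6 of 9 cortex libraries and in 0 of 10 gastrocnemius libraries, with a median of 1.92 CPM in the cortex (Fisher's exact test, p = 0.0031, adjusted p = 0.00799). With equally many peaks taken from every library the adjusted p of these H3K27ac calls rose to 0.138. The antisense RNA Pax6os1 starts 1434 bp downstream of the first Pax6 TSS on the other strand, and chromatin immunoprecipitation does not tell the strands apart.

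H3K27ac also differed over the whole Pax6 gene. Peaks covered 42.0% to 72.2% of Pax6 in the cortex (median 54.9%) and 0% to 15.6% in the gastrocnemius (median 9.83%), and every cortex library lay above every gastrocnemius library (p = 1.08e-05, adjusted p = 5.82e-05 over 19996 genes, of which 25.1% were covered more in the cortex). The level per kb was 1.45 ± 0.27 CPM against 0.12 ± 0.09 CPM. H3K4me3 covered 54.9% ± 7.32 of the gene in the cortex and 37.9% ± 4.48 in the gastrocnemius (adjusted p = 0.000299). In the cortex of all 9 mice at least 98.7% of the H3K27ac length in Pax6 was also under H3K27me3, and in the 7 gastrocnemius muscles with H3K27ac all of it was.

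**Figure D4:**
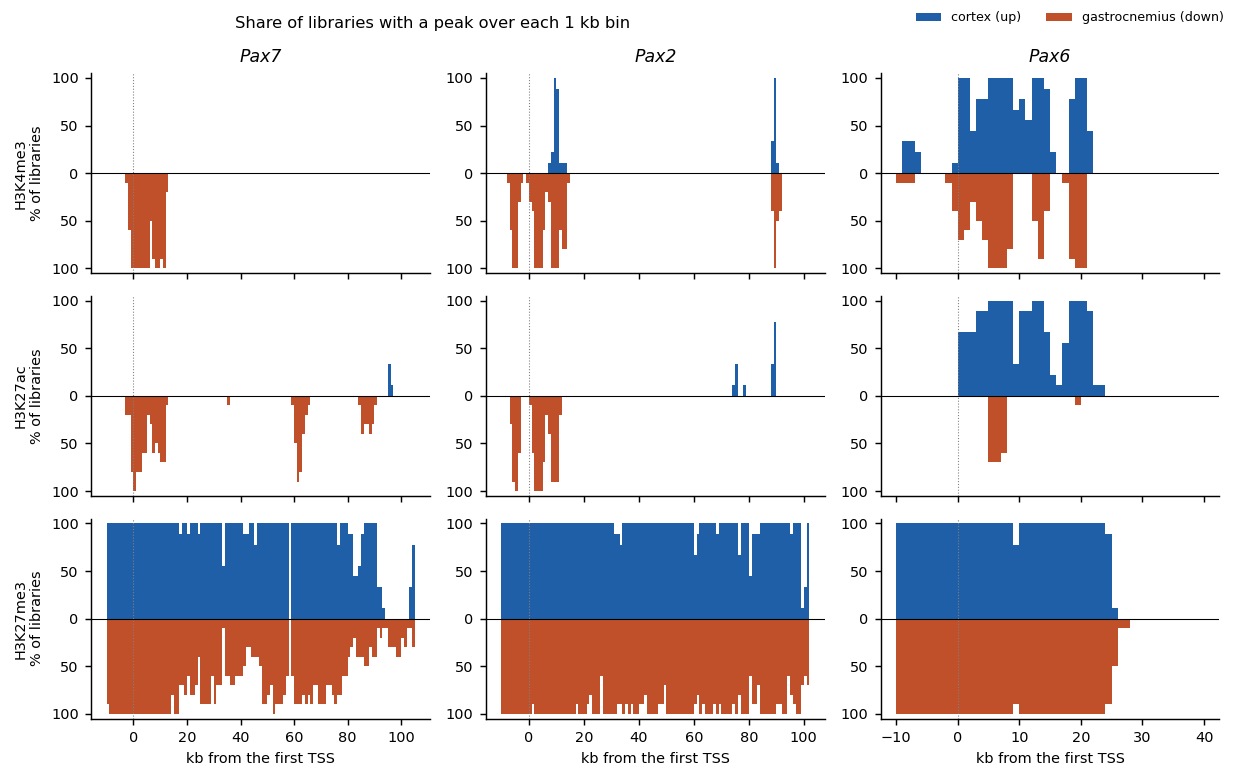
Share of libraries with a peak over each 1 kb bin of Pax7, Pax2 and Pax6 from 10 kb before the first TSS (dotted line) to 10 kb past the gene end, with cortex libraries (9) drawn upward and gastrocnemius libraries (10) downward, for the 3 marks. At Pax6, H3K27ac of the cortex stands in blocks up to 22 kb, and that of the gastrocnemius is seen in 6 or 7 of 10 libraries from 5 to 8 kb. H3K4me3 of Pax7 is drawn downward alone.

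The start sites of Pax6 differed in how the tissues compared. Each curated TSS was tested by itself, an analysis chosen after seeing the data, with adjustment over every curated TSS of the genome (background 73.6% called for H3K4me3 and 63.2% for H3K27ac). At the second TSS, 6848 bp into the gene, H3K4me3 was 12.1 ± 2.32 CPM in the cortex and 12.6 ± 2.59 CPM in the gastrocnemius, with all 19 libraries called and a difference of -0.05 on the log2 scale (exact p = 0.701). The third TSS, 7233 bp in, shares most of its window and differed by -0.03. H3K27ac at the second TSS was 5.79 ± 0.87 CPM against 2.09 ± 1.53 CPM, with 9 of 9 and 7 of 10 libraries called (adjusted p = 0.000248). At the fourth TSS, 13567 bp in, H3K27ac was 2.55 to 5.73 CPM in the cortex and was called in none of the 10 gastrocnemius libraries (adjusted p = 7.19e-05), while H3K4me3 was called in 9 of 9 and 9 of 10 and was higher in the cortex, with 7.34 ± 2.84 CPM against 4.24 ± 1.74 CPM (adjusted p = 0.019). H3K27me3 at the 4 sites was 13.4 to 14.0 CPM on average in the cortex and 13.2 to 13.6 CPM in the gastrocnemius, and no site passed (background 40.1%). These are not 4 separate results, because windows inside 1 wide peak carry its average density. TSS 1, TSS 2 and TSS 3 had the same H3K27me3 value in every library.

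**Figure D5:**
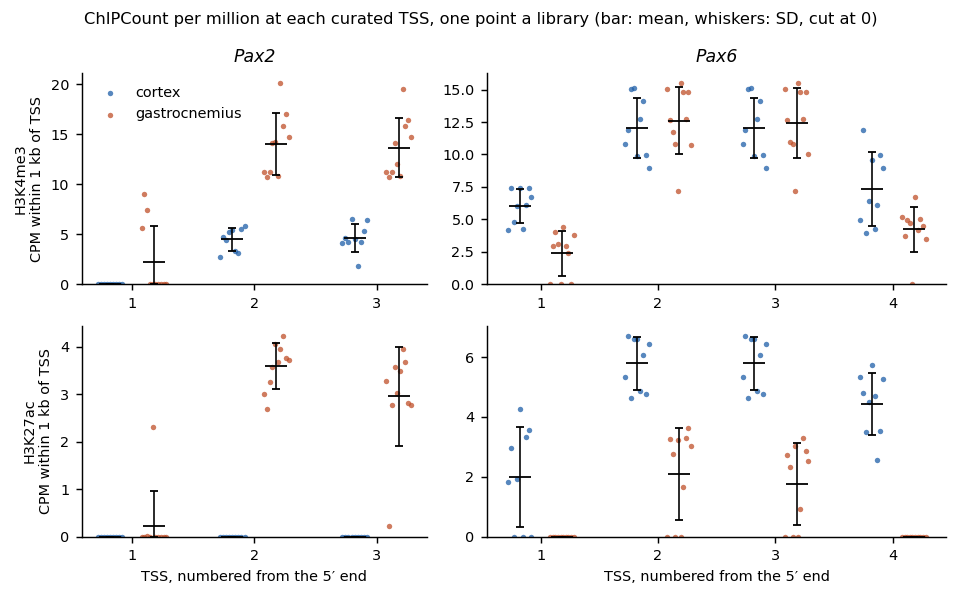
CPM within 1 kb of each curated TSS of Pax2 (3 sites) and Pax6 (4 sites), numbered from the 5′ end, for H3K4me3 and H3K27ac, with 1 point for each of 9 cortex (blue) and 10 gastrocnemius (orange) libraries, a bar at the mean and whiskers of 1 SD. At sites 2 and 3 of Pax2 every gastrocnemius library has both marks, and H3K27ac is at 0 in every cortex library.

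Pax2 showed a muscle pattern that its most upstream TSS missed. At that TSS H3K4me3 was called in 0 of 9 cortex and 3 of 10 gastrocnemius libraries (5.59 to 8.99 CPM where called), which did not pass (Fisher's exact test, p = 0.211). At the second TSS, 9151 bp downstream, the one with 23 CG dinucleotides in the sequence shown, all 19 libraries had H3K4me3, with 2.77 to 5.86 CPM in the cortex (median 4.77) and 10.7 to 20.1 CPM in the gastrocnemius (median 14.2), so that the groups did not overlap (exact p = 1.08e-05, adjusted p = 5.48e-05). H3K27ac was called at the second TSS in 0 of 9 cortex libraries and in 10 of 10 gastrocnemius libraries, with 2.69 to 4.23 CPM (median 3.69; adjusted p = 7.19e-05). Both active marks also lay 4 to 6 kb upstream and 2 to 5 kb downstream of the first Pax2 TSS in muscle, with H3K4me3 in 10 of 10 libraries and H3K27ac in 9 or 10, and in no cortex library.

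Over the whole of Pax2 H3K4me3 covered 4.78% ± 1.27 in the cortex and 14.1% ± 2.79 in the gastrocnemius, and H3K27ac 2.21% ± 1.43 and 8.25% ± 1.36, both without overlap between the groups (p = 1.08e-05 each). At the other end of the gene, 89 to 90 kb in, H3K27ac was called in 7 of 9 cortex and no gastrocnemius libraries, while H3K4me3 there was called in all 19. The lncRNA 1700039E22Rik starts 89337 bp from the first Pax2 TSS on the other strand. Everywhere in Pax2 the H3K27ac length was fully under H3K27me3 of the same animal and tissue. The gastrocnemius H3K27me3 level at the second TSS was 12.7 ± 3.42 CPM against 14.7 ± 2.15 CPM in the cortex (adjusted p = 0.256).

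Pax5, which commits lymphoid cells to the B lineage, had little at its TSS. H3K4me3 was called in 2 of 9 cortex and 6 of 10 gastrocnemius libraries, with medians of 0 and 1.32 CPM and a highest cortex value of 0.191 CPM. The CPM passed (adjusted p = 0.0185) but not in a window of 3 kb (adjusted p = 0.198) or with equally many peaks from every library (adjusted p = 0.524), and the calls did not (Fisher's exact test, adjusted p = 0.264). Over the whole gene the direction was the opposite, with H3K4me3 of 0.140 ± 0.0133 CPM per kb in the cortex and 0.0944 ± 0.0299 CPM per kb in the gastrocnemius (adjusted p = 0.00176), where 36.9% of all genes were higher in the cortex. Within the gene the peaks differed in place. H3K4me3 6 to 8 kb into Pax5, where the antisense lncRNA 5730488B01Rik starts 7894 bp from the TSS, was seen in 7 to 9 cortex libraries and all 10 gastrocnemius libraries. A bin 152 to 153 kb into Pax5 had H3K4me3 in 9 of 9 cortex libraries and H3K27ac in 8 of them, and neither mark in muscle. H3K27ac covered 1.47% ± 0.63 of Pax5 in the cortex and 0.61% ± 0.57 in the gastrocnemius (adjusted p = 0.017, and 0.193 with equally many peaks from every library), and in muscle it lay 75 to 78 kb in, outside H3K27me3 in all 6 muscles that had it. Of 4 B cell markers, none had H3K4me3 in the cortex, and Cd79b alone had it in muscle, in 1 library. Their H3K27ac was summed to 0 to 7.61 CPM in the cortex and 6.86 to 17.8 CPM in the gastrocnemius, with Ms4a1 at 0 in every library. Their part in the Pax5 values was not tested.

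Pax8, the thyroid and kidney factor, had H3K4me3 in 5 of 9 cortex libraries and in no gastrocnemius library (Fisher's exact test, p = 0.0108, adjusted p = 0.0223). The peaks lay 1 to 3 kb downstream of the TSS and reached the window with at most 0.51 CPM. Without the libraries with a run number the adjusted p was 0.27, and with equally many peaks from every library it was 0.545. No library had H3K27ac in Pax8.

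Genes that work with the PAX factors or are known targets of them were read as a list of 32. For H3K4me3 27 of the 32 had a peak in at least 1 library, 14 were higher in the gastrocnemius, 7 in the cortex and 6 did not pass (exact permutation test on log2(CPM + 1), adjusted over all genes), beside 14.7% and 58.3% of all genes. The median difference was -0.43 against 0.33 over all genes tested. For H3K27ac the counts were 15 higher in the gastrocnemius, 6 higher in the cortex and 5 not passing of 26 (all genes 13.2% and 49.0%), with a median of -0.52 against 0.27. For H3K27me3 13 of 31 were higher in the cortex and none in the gastrocnemius (all genes 20.1% and 18.9%), with a median of 0.38 against 0.06.

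On the list Myf5, a direct target of Pax7, had H3K27me3 in all 9 cortex libraries (9.35 CPM) and in no gastrocnemius library. Pax7 itself differed in that its H3K27me3 was called in all 10 muscles. The genes of the Pax6 lineage on the list did not share a direction. Tbr1, a factor of the neurons that arise from Pax6-expressing progenitors, had 22.3 CPM of H3K4me3 in the cortex and 4.86 CPM in the gastrocnemius, with 9.09 and 0.25 CPM of H3K27ac. Eomes, a factor of intermediate progenitors, had 7.03 and 13.3 CPM of H3K4me3 (adjusted p = 9.75e-05), and H3K27ac in 0 of 9 and 10 of 10 libraries. Neurog2, a proneural factor, passed for neither mark (adjusted p = 0.578 and 0.92).

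The genes whose TSS profile lay nearest to each PAX gene, by Euclidean distance over the 6 mark and tissue means of log2(CPM + 1) and with no test, are given as a description. Nearest to Pax9 was Nkx3-2 at a distance of 0.20, a gene of the list above, followed by Tfap2a at 0.22 and Fev at 0.35. Pax2 lay nearest to Prss16 (0.24), Tbx4 (0.27) and Hdnr (0.29), and Pax5 to Tbx4 (0.21), 9230102O04Rik (0.21) and Prss16 (0.23). Pax8 lay nearest to Slc5a1 (0.13), Slc46a2 (0.14) and Tcf21 (0.14). For Pax7 it was the lncRNA Hottip at 0.61, then Col8a2 at 0.66 and Hoxb9 at 0.76, and for Pax3 Foxb2 at 0.55, Lhx4 at 0.55 and Nkx6-1 at 0.56. Pax6 was nearest to Pax6os1 (0.38), which shares its peaks, and then to C1ql2 (0.59) and Slc25a48 (0.65). Pax1 and Pax4, with H3K27me3 alone, had closer neighbours, Gm13262 (0.09), AI646519 (0.11) and Olig3 (0.13) for Pax1 and Ahsg (0.04), Mir292b (0.07) and Mir292 (0.08) for Pax4. Among the PAX genes themselves Pax1 and Pax8 were closest (0.21), ahead of the subgroup pair Pax2 and Pax5 (0.23).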

How the data were processed

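H3K4me3, H3K27ac and H3K27me3 ChIP-seq of snap-frozen cortex and gastrocnemius gave 57 libraries. Alignment by the authors was to mm10 with BWA, unmapped, low-quality and duplicate reads were dropped with SAMtools, and epic2 (release not given in the sources used here) called peaks in each library by itself. The deposited ChIPCount is the count of fragments in each peak, not normalized by the authors, and the deposited epic2 score was used to rank peaks alone. The count was shared over the window of 1 kb either side of the TSS or over the gene by overlap and scaled to reads in autosomal peaks, since X differed between libraries for H3K27me3.

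Genes with a peak in every library were tested with edgeR 4.0.16 (TMM factors, quasi-likelihood test). Other values were tested by a two-sided exact permutation over all 92378 splits of 9 against 10, on log2(CPM + 1), log2(CPM per kb + 0.1), coverage or width, and calls by Fisher's exact test. The p-values were adjusted by Benjamini-Hochberg within each mark at an FDR of 0.1, over all genes tested (for edgeR those with a peak in every library) or, for single start sites, over every curated TSS tested, and measure the spread between mice. DESeq2 1.42.0, other windows, scalings, filters, left-out libraries and blocks were tried. The edgeR step was tested on simulated data.

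The animal codes in the deposited names pair 9 mice across tissues, cortex 5 to 9 with gastrocnemius 6 to 10. Deviations of the same animal's 2 tissues correlated between -0.0911 and 0.0898 over genes. Some names carry a code here called a run number (2 cortex and 4 gastrocnemius libraries of each mark), whose meaning the labels do not give. The naming itself differs between tissues, so it cannot be told apart from tissue. Named genes were the 9 PAX genes, at most 4 members with values from the list of 32 partners and targets and from each of the marker lists (neuron, astrocyte, oligodendrocyte, skeletal muscle, satellite cell, B cell, endothelial), and the 3 genes nearest to each PAX gene. The members and lists were chosen with earlier results of these data known.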

Additional observations from a re-analysis of the deposited data

Results flagged for a closer look

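In 107 groups of values, 16 values lay far from the others of their group by Dixon's test, and several of them came from the same library. The test flags about 1 in 20 groups of independent, normally distributed values by chance. These groups share libraries and many hold values at 0, so that rate need not apply. Where 1 library alone has a peak, its value is always flagged. Gastrocnemius replicate 5 of H3K27me3, the deepest library of its mark, had the widest peak at the TSS of Pax1 (51200 bp, next 32400), Pax9 (67800 bp, next 33000), Pax2 (280600 bp, next 78600) and Pax8 (37800 bp, next 16800), and the highest coverage of Pax6 (93.9%, next 87.1%). Other H3K27me3 values were those of cortex replicate 1 at Pax1, with the narrowest peak (29000 bp, next 31800), cortex replicate 5 at Pax8 (28800 bp, next 19200), and gastrocnemius replicate 8, where coverage of Pax4 was 0% against 65.6% or more.

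For H3K27ac, gastrocnemius replicate 9 was the single library with a peak at Pax9, with 1.60 CPM at the TSS, 9.22% of the gene covered and a width of 1600 bp. Gastrocnemius replicate 5 had 2.31 CPM at the first TSS of Pax2, and the next library 0.00342 CPM. Cortex replicate 9, the shallowest library, covered 0% of Pax5 (next 1.29%), and cortex replicate 3 covered 0.337% of Pax7 where the other cortex libraries covered none. For H3K4me3, cortex replicate 8 covered 3.90% of Pax3 (next 2.23%), and gastrocnemius replicate 1 had a 14400 bp peak at the first TSS of Pax2 (next 6800 bp).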

How the results depend on the processing

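Of 220 counts of PAX genes called under alternatives, 209 were within 1.5 times the reported count. In what follows, counts of all genes called in either direction stand in brackets. Without the libraries with a run number, H3K27me3 at the TSS went from 7 called to 1 by permutation (4555 of 11687 genes to 3370 of 10855). Widths went from 1 to 6 (4276 of 11687 to 3270 of 10855), as they also did without gastrocnemius replicate 5 (4149 of 11391). By edgeR the 7 called for H3K27me3 fell to 2 within the libraries with a run number (989 to 387 of 2041 genes). H3K27ac went from 0 to 1 with uncalled libraries at 0 (6490 of 13275 to 9246 of 16990). Widths of H3K27me3 passed for 0 PAX genes at an FDR of 0.05 (3427 of 11687). With equally many peaks from each library, H3K27ac fell from 2 to 1 by CPM (11875 of 19096 to 12606 of 18627). It also fell from 2 to 1 by width (12563 of 19096 to 12300 of 18627) and calls (2992 of 5821 to 3107 of 5581). With a mean of at least 1 CPM it fell from 2 to 1 by CPM (11483 of 17452). Calls of H3K4me3 rose from 2 to 4 without the peaks of lowest score (1859 of 3411 to 2028 of 3695). Leaving out 1 library gave 6 to 6, 2 to 2 and 5 to 7 PAX genes by CPM for H3K4me3, H3K27ac and H3K27me3, and 2 to 2, 0 to 0 and 6 to 8 by edgeR. All genes called then numbered 12077 to 12799, 11097 to 12187 and 4014 to 4404 by CPM. By edgeR they numbered 7015 to 7331, 6217 to 6475 and 929 to 980.

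With the replicate block by animal code, edgeR called the same 7 PAX genes for H3K27me3 (Pax5 adjusted p = 0.0922, Pax4 0.119), and with the block by title numbers 8, with Pax4 at 0.0848. Of all 2041 genes, 489 and 490 were called higher in the cortex with these blocks. In the permutation test within animals, run for the CPM at the TSS alone, Pax4 was lost for H3K27me3 (adjusted p = 0.15), and no other call of that measure changed. Pax6 changed sign for H3K27me3. By CPM it was -0.0183 scaled to all peaks, -0.124 without the run-number libraries and -0.0195 in the block and without gastrocnemius replicate 5, and it was -0.0195 to 0.123 when 1 library was left out. Per kb it was -0.154 and -0.0527 in the same left-out sets. By edgeR it was 0.0671 with library sizes, 0.0221 with uncalled libraries at 0, 0.188 with whole counts (0.107 without gastrocnemius replicate 5) and 0.00517 without the run-number libraries. H3K4me3 of Pax6 was -0.0519 and -0.0343 at TSS 2 and TSS 3. Pax5 changed sign without the run-number libraries, to -0.247 percentage points of H3K4me3 coverage and -0.000919 for H3K27me3 CPM, and to 0.0222 for H3K4me3 calls with equally many peaks. The cause was not tested for any of these.

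Over all genes, library sizes (reads in autosomal peaks) in place of TMM factors split the calls 8468 to 1577 (H3K4me3) and 6704 to 1042 (H3K27ac), cortex higher to lower. With TMM factors the calls were 3629 to 3678 and 3200 to 3290. The medians moved to 0.33 and 0.29 with library sizes. H3K27me3 calls were 989, against 431 with library sizes, 2238 with uncalled libraries at 0, 1497 in a 3 kb window and 387 within the run-number libraries, which gave 2963 for H3K4me3 (7307) and 1543 for H3K27ac (6490). Reads outside called peaks are not in the files analysed, so what depth limits below the caller's threshold could not be read from them.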
